A study of Zea mays with 6 samples.

Results

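The leaf mRNA pool of watered maize seedlings is described here from the 2 watered (W) libraries of a series of 6, which list a value for the same 39634 genes. The seedlings were of the inbred line B73. The labels place them in potting soil and in growth rooms, with 12 h of light at 180 μmol m−2 s−1 and 22 °C, while the study's methods name a greenhouse. The methods add that the plants were lifted from soil and kept overnight with their roots in water before sampling, that leaves of several plants made up each sample, and that the 2 W libraries are independent biological samples. The other libraries, 2 from leaves dried once in air (S1) and 2 from leaves dried in air for the last of 3 times (S3), enter only where the agreement of their own replicates is set beside that of W. No contrast with W was made.

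Each value is in FPKM, fragments per kilobase of transcript scaled to the mapped fragments of the library, so it is a level per length of transcript and can be compared between genes. The share of a gene or class is its FPKM over the summed FPKM of the library. That sum was 672411 in W replicate 1 and 568731 in W replicate 2. Genes were placed in 35 functional classes by words in the description that the deposited files give for each gene, or in 1 of 3 remaining classes: described by some other word, called only uncharacterized or hypothetical, or without a description. With 2 libraries of 1 group no test was possible, and every comparison below is a description of these libraries.

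Maize fixes carbon by the C4 route. In mesophyll cells carbonic anhydrase and phosphoenolpyruvate carboxylase trap inorganic carbon in a C4 acid, which passes to the bundle sheath, where NADP-malic enzyme releases carbon dioxide to Rubisco and the Calvin cycle. Pyruvate orthophosphate dikinase then renews the acceptor. The light reactions, in which chlorophyll-binding antenna proteins feed photosystems II and I and plastocyanin and ferredoxin carry electrons, supply the energy. Most of these proteins are encoded in the nucleus and imported into the chloroplast, and a smaller set of core subunits is encoded in the plastid genome.

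The markers of a C4 leaf were present in both libraries. Pyruvate orthophosphate dikinase summed to 11295 and 8849.9 FPKM over 2 genes in replicates 1 and 2, NADP-malic enzyme to 2066 and 1544 over 4 genes, phosphoenolpyruvate carboxylase to 1549.8 and 966 over 3 genes and carbonic anhydrase to 294 and 219 over 4 genes. Of 73 genes described by words for seed, pollen, meristem or root proteins, 47 were listed at 0 in both libraries and 7 had a mean of at least 1 FPKM. Of all 39634 genes, 27.7% were at 0 in both and 18627 had a mean of at least 1 FPKM. Root words matched 8 genes, with a highest mean of 0.022 FPKM. The word oleosin, for coat proteins of seed oil bodies, matched 6 genes with a highest mean of 0.098, that of a steroleosin. The highest described as an oleosin was GRMZM2G333069 at 0.075. Of 27 genes matched by zein or globulin only GRMZM2G094532, described as a membrane protein of zein bodies and known to RefSeq as Floury1, reached a mean of 1 FPKM, at 24.5 and 17.7. The exceptions with a clear level were homeobox genes of the knotted family, GRMZM2G055243 (knotted-1-like 2) at 173 and 182 FPKM and GRMZM2G370332 (knotted-1-like 7) at 56.8 and 58.6, and the pollen-specific protein SF3, GRMZM2G128206, at 44.03 and 39.69. The leaf label thus matched its C4 markers. The meristem words, chosen as ones a leaf should lack, were not all low. They matched 11 genes, of which 3 had a mean of at least 1 FPKM and 4 were at 0 in both libraries. These words match by family name, and which members mark a meristem was not tested. The other-organ words summed to 343 and 345 FPKM, of which knotted and rough sheath genes held 257 and 270.

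Expression covered a wide range. Of the 39634 genes, 10960 (27.7%) were listed at 0 in both libraries and 2566 at 0 in 1 of them. At least 1 FPKM was reached by 18582 genes in replicate 1 and 18518 in replicate 2, and by 18038 in both. At least 10 FPKM was reached by 9068 and 9014 genes, at least 100 by 894 and 778, at least 1000 by 75 and 59, and at least 10000 by 3 genes in replicate 1 and by 0 in replicate 2. The libraries were therefore nearly alike in the number of genes at low and middle levels and differed at the top. Among genes at 1 FPKM or more the median level was 9.65 in replicate 1 and 9.59 in replicate 2.

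A small number of genes held much of the pool. The gene of highest level alone made up 1.89% of replicate 1 and 1.55% of replicate 2, the top 20 made up 16.1% and 13.5%, and the top 1000 made up 60.1% and 55.1%. It took 451 genes in replicate 1 and 692 in replicate 2 to reach 50% of the summed FPKM, and 7217 and 7971 to reach 90%. The pool of replicate 1 was the more concentrated. Both libraries nevertheless put much the same genes at the top: 18 of each library's 20 highest genes were shared, and 917 of each library's 1000 highest.

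**Figure D1:**
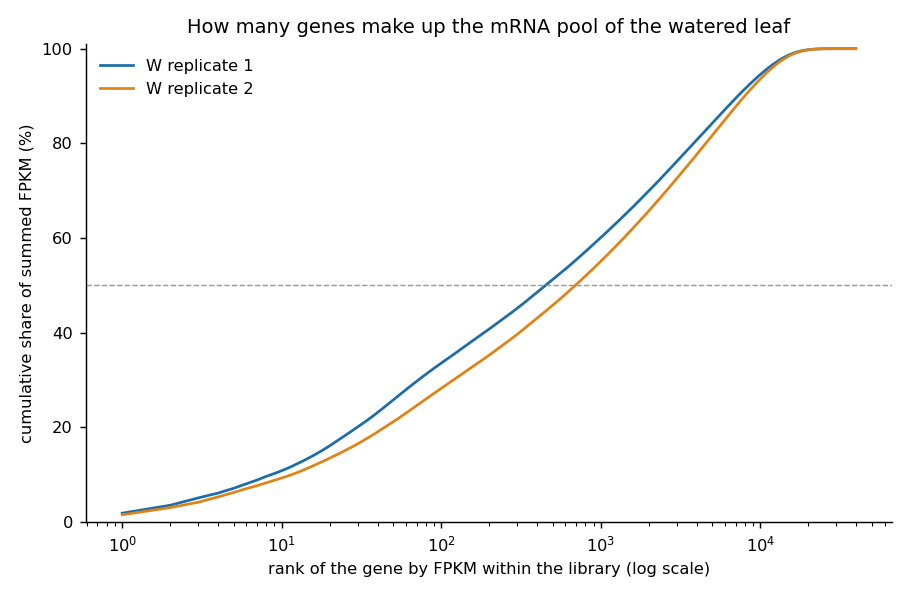
Cumulative share of the summed FPKM (y axis, percent) against the rank of the gene within its library (x axis, log scale), with 1 line for each W replicate and a dashed line at 50%. The line of replicate 1 lies above that of replicate 2 and crosses 50% at 451 genes, against 692 genes for replicate 2.

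Of the 20 genes with the highest mean FPKM, 8 belonged to the light reactions and these carried 38.9% of the FPKM of the 20. The first was AC207722.2_FG009, chlorophyll a-b binding protein 1, an antenna protein of photosystem II, at 12689 and 8604 FPKM in replicates 1 and 2. The second was GRMZM2G306345, pyruvate orthophosphate dikinase, at 11253 and 8819 FPKM. The files call it a truncated cytosolic form, and the RefSeq gene table lists names for both the C4 and the cytosolic enzyme at this locus. GRMZM2G351977 came next at 10482 and 6440.2 FPKM. It has only a hypothetical protein as its description, and RefSeq gives it the name cab-m1, a chlorophyll a-b binding protein. GRMZM2G080603, glycine-rich protein1, followed at 6806 and 6459 FPKM, the closest pair of values among the first 10 genes.

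Below these stood GRMZM2G070167, described as light-induced protein 1-like, at 6399.7 and 5286 FPKM, and GRMZM2G080107, subunit N of photosystem I, at 6863 and 4622. GRMZM2G071450, plastocyanin, the soluble copper protein that carries electrons to photosystem I, had 5227 and 3417 FPKM. GRMZM2G164229, a metallothionein, one of the small cysteine-rich proteins that bind metals, had 3943 and 3148. GRMZM2G168552, named for its specificity to bundle sheath cells, had 3439 and 2603 FPKM. Photosystem proteins filled most of the other described places: GRMZM2G016066 (photosystem I subunit IV A), GRMZM2G010884 (chlorophyll a-b binding protein 8), GRMZM2G033885 (photosystem II subunit29), GRMZM2G155216 (chlorophyll a-b binding protein M9) and GRMZM2G451224 (photosystem I subunit VI) lay between 3388 and 4060.5 FPKM in replicate 1 and between 1814 and 2529.6 in replicate 2. Beside GRMZM2G351977, 6 of the 20 had no functional description: GRMZM2G175562, AC190623.3_FG001, AC216353.2_FG005, GRMZM2G123896, GRMZM2G402936 and GRMZM2G153184. RefSeq names GRMZM2G402936, at 3557 and 2059.7 FPKM, lhcb7 and Cab-m7. All 20 genes were lower in replicate 2.

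**Figure D2:**
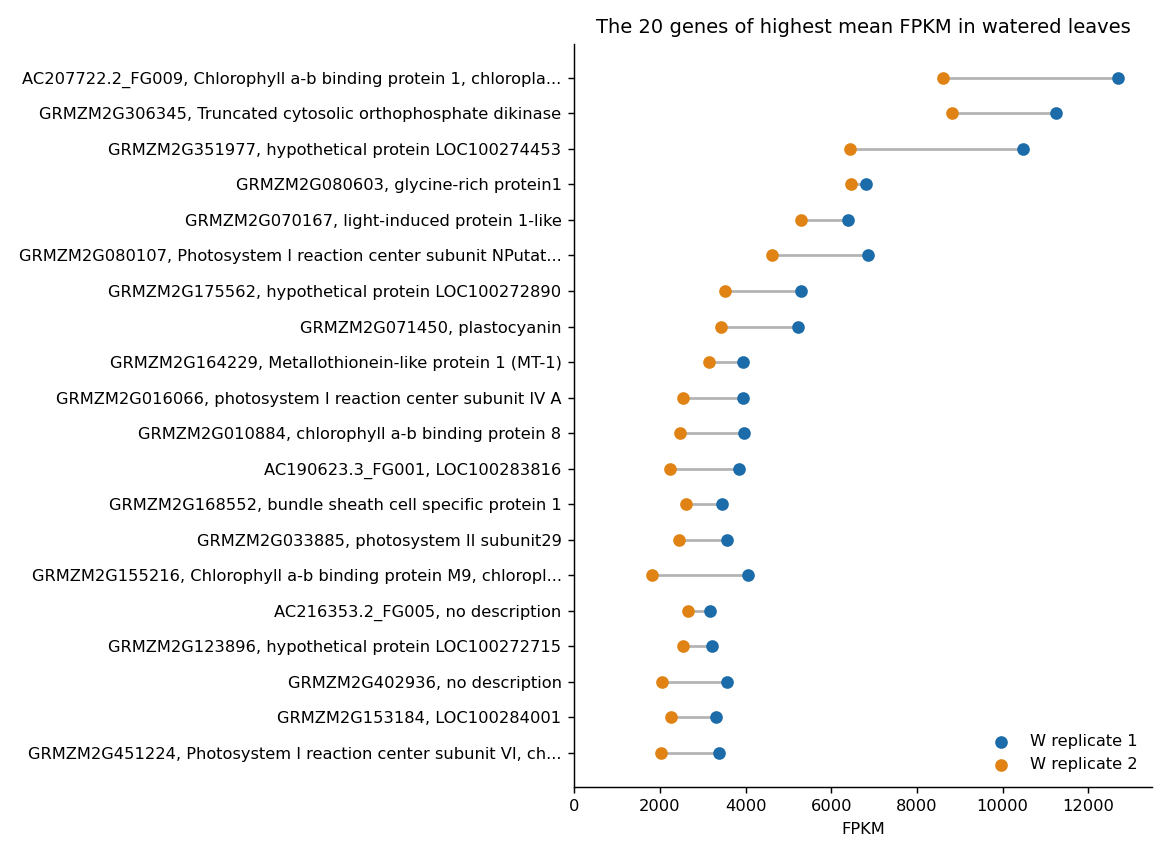
FPKM (x axis, linear from 0) of the 20 genes of highest mean level, 1 row a gene, with 1 point for each W replicate joined by a line. Every gene is lower in replicate 2, by the least for GRMZM2G080603 (6806 and 6459) and by the largest factor for GRMZM2G155216 (4060.5 and 1814).

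Most of the pool could not be given a function from the descriptions. The 13649 genes called only uncharacterized or hypothetical held 44.03% of the summed FPKM in replicate 1 and 44.95% in replicate 2, and the 19801 genes with no description held 14.99% and 16.58%. Together they were 84.4% of genes and 60.3% ± 1.77 (SD, n = 2) of the pool. Members of the functions below may be among them, so the share of a function is that of its described genes only. Genes with a functional description numbered 6184 and held 41.0% and 38.5%, of which the 2539 genes that none of the 35 classes took held 8.80% and 9.15%.

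Among functions the light reactions of photosynthesis were the largest class. Its 79 genes, of which 57 had a mean of at least 1 FPKM, held 12.3% of the pool in replicate 1 and 8.99% in replicate 2, a mean of 10.6% ± 2.31 (SD, n = 2). With the C4 shuttle, the Rubisco and Calvin cycle class, photorespiration and the synthesis of tetrapyrroles and carotenoids, 153 genes, or 0.386% of those listed, held 16.02% and 12.32% of the pool. As a share of described genes alone these 5 classes held 39.10% and 32.01%. The median level of a light reaction gene at 1 FPKM or more was 299 FPKM, against 58.1 for cytosolic ribosomal proteins, 10.6 for transcription factors and 9.81 for protein kinases and phosphatases.

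Within the light reactions, the antenna came first. The 15 genes described as chlorophyll a-b binding summed to 38642 FPKM in replicate 1 and 23411 in replicate 2, which was 46.9% and 45.8% of the class. The 10 nuclear photosystem I subunits summed to 25052 and 15234 FPKM and the 14 genes of photosystem II and oxygen evolution to 9076 and 6108. The photosystem II sum includes GRMZM2G033885, at 3558 and 2438 FPKM, described as photosystem II subunit29. RefSeq also names it cp29, an antenna protein, so the antenna sum leaves it out. Plastocyanin added its single gene, and 12 genes described as ferredoxins or ferredoxin-NADP reductases summed to 3002 and 2003. In the light reactions such proteins pass electrons from photosystem I to NADP. Whether each of the 12 does so was not tested. The proportions within the class were thus nearly equal in the libraries although its total was not. Of the electron carriers at the acceptor side, the leaf reductase GRMZM2G059191 had 916 and 612 FPKM and Ferredoxin-1, GRMZM2G122337, had 632 and 331. GRMZM2G077333, the 22 kDa protein of photosystem II that RefSeq calls psbs1 and that serves in the harmless dissipation of excess light, had 367 and 230.4. Near-identical antenna genes can share reads, so the split of a level between such copies is uncertain.

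Models described as subunits that plants encode in the plastid genome were mostly at or near 0. They were gathered after values had been seen. Of 21 such models of photosystem, cytochrome b6-f and ATP synthase subunits, 8 were listed at 0 in both libraries and 4 had a mean of at least 1 FPKM. Of all 39634 genes, 27.7% were at 0 in both and 18627 had a mean of at least 1 FPKM. The highest was GRMZM5G815553, the iron-sulfur centre subunit of photosystem I, at 90.5 and 87.8 FPKM, followed by GRMZM5G856777, the CP43 antenna of photosystem II, at 17.1 and 10.7. The 4 models described as Rubisco large chain summed to 2.97 and 2.00 FPKM. All 21 summed to 114 and 102 FPKM, or 0.1385% and 0.2002% of the light reaction class. The study's methods name an mRNA kit for the libraries. How far it captures plastid transcripts was not tested, so these values may not give their level in the leaf.

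The C4 shuttle was the next function in size and rested on few genes. Its 16 genes held 2.39% of the pool in replicate 1 and 2.15% in replicate 2, and 3 of them held 92.3% of the class. Pyruvate orthophosphate dikinase GRMZM2G306345 alone held 71.0%. The chloroplast NADP-malic enzyme GRMZM2G085019 had 2028 and 1505 FPKM and phosphoenolpyruvate carboxylase 1, GRMZM2G083841, had 1533 and 941. NADP-malate dehydrogenase GRMZM2G129513, which makes malate in the mesophyll, had 560.0 and 469.7 FPKM, and phosphoenolpyruvate carboxykinase GRMZM2G001696, which releases carbon dioxide by a side route, had 266 and 166. The leading carbonic anhydrase, GRMZM2G121878, had 263 and 195. Other genes of the same enzymes were far lower, as with the second NADP-malic enzyme GRMZM2G122479 at 35.9 and 37.6 FPKM, and a second dikinase, GRMZM2G097457, at 41.9 and 31.2. The regulatory protein of the dikinase, GRMZM2G131286, which switches the enzyme off and on with light, had 904 and 786 FPKM and led the class of protein kinases and phosphatases.

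The Rubisco and Calvin cycle class held 1.02% and 0.847% of the pool in 21 genes. Its first members were GRMZM2G480850, CP12-1, a small protein that binds Calvin cycle enzymes, at 1986 and 1390.1 FPKM, and the A and B subunits of chloroplast glyceraldehyde-3-phosphate dehydrogenase, GRMZM2G337113 at 1810.3 and 1319 and GRMZM5G845611 at 842 and 636. The Rubisco small subunit GRMZM2G098520 had 761 and 367 FPKM, and GRMZM2G113033, called hypothetical in the files and rbcS by RefSeq, had 798 and 458. Rubisco activase GRMZM2G162200 had 319.8 and 251. Phosphoribulokinase GRMZM2G463280, which makes the substrate of Rubisco, had 33.4 and 25.3. Photorespiration held 0.0697% and 0.0611% in 6 genes, led by the H-protein of glycine cleavage, GRMZM2G399183, at 219 and 132 FPKM. Pigment synthesis held 0.294% and 0.266%, with GRMZM2G105644, a geranylgeranyl hydrogenase, at 659 and 485 FPKM, protochlorophyllide reductase B, GRMZM2G073351, at 610.4 and 414, and phytoene synthase, GRMZM2G300348, at 182 and 147.

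Protein synthesis was spread over many genes of middle level. The 173 genes of cytosolic ribosomal proteins held 1.66% and 1.88% of the pool, and their 3 highest genes, GRMZM2G171444 (L19), GRMZM2G114954 (P2B) and GRMZM2G027451 (L10-3), held 9.47% of the class. Ribosomal proteins of plastids and mitochondria held 0.497% and 0.436% in 69 genes, with 50S protein L1, GRMZM2G005973, first at 451 and 365 FPKM. Translation factors and tRNA synthetases held 0.805% and 0.898% in 59 genes, led by GRMZM2G073535, the initiation factor SUI1, at 482 and 426. Polyubiquitin GRMZM2G419891, a precursor of the tag that marks proteins for degradation, was higher in replicate 2, at 527 and 621 FPKM, and its class with the proteasome held 0.811% and 0.887%. Polyubiquitin genes share near-identical repeats, so the level of any one is uncertain.

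**Figure D3:**
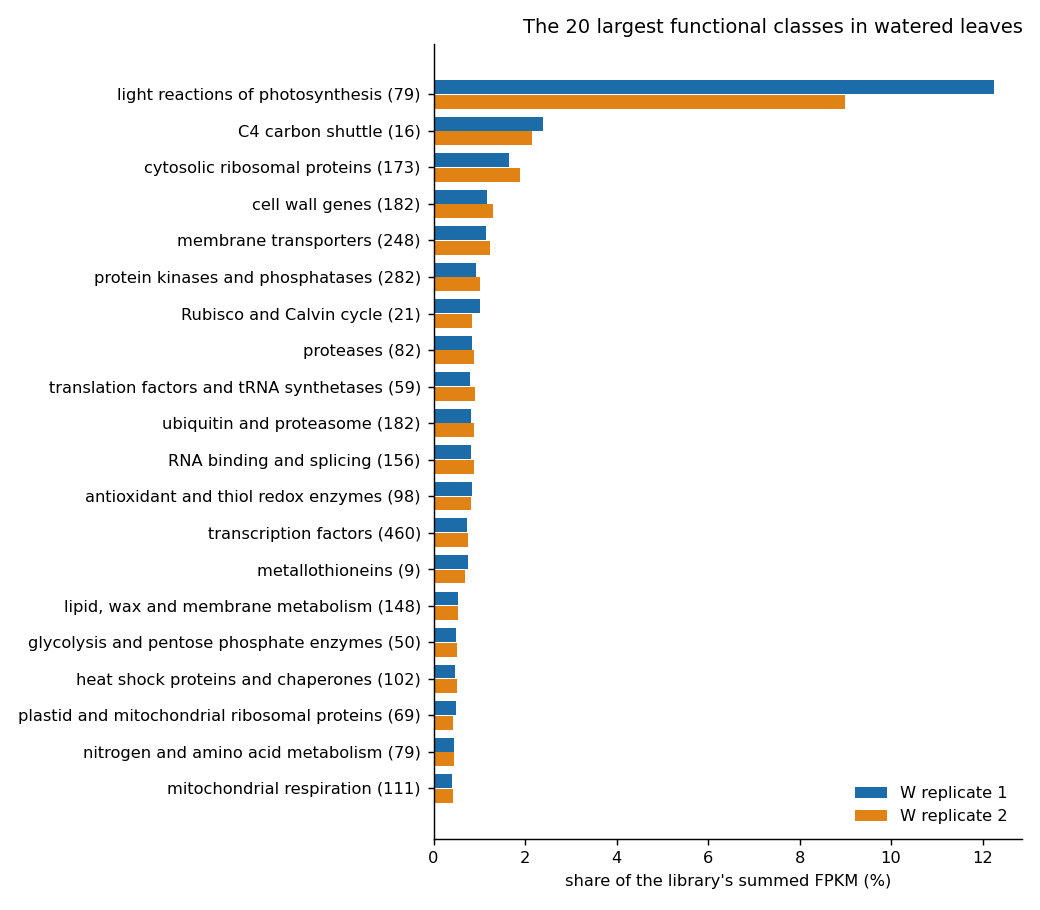
Share of the library's summed FPKM (x axis, percent, from 0) held by the 20 largest of the 35 functional classes, with a bar for each W replicate and the number of genes in parentheses. The light reactions hold 12.3% in replicate 1 and 8.99% in replicate 2, and the C4 shuttle comes next with 2.39% and 2.15%.

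In several other classes 1 gene held a large part of the level. Glycine-rich protein1, GRMZM2G080603, held 87.1% of the cell wall class, whose share was 1.17% and 1.30%. The description of this gene does not name the cell wall, so most of that share rests on where 1 gene was placed. The next of the 182 genes of the class was GRMZM2G104876 at 264 and 240 FPKM, and 55 of the 182 had a mean of at least 1 FPKM. Metallothioneins held 0.7499% and 0.6919% in 9 genes, of which GRMZM2G164229 held 79.0%. The defence class held 0.3729% and 0.3803%, and 71.0% of it was GRMZM2G028393, a subtilisin-chymotrypsin inhibitor homolog, at 1869 and 1446 FPKM. GRMZM5G834758, the HMG1-like chromatin protein MNB1B, at 1316 and 1069, held 50.9% of the chromatin class. GRMZM2G165901, a glycine-rich RNA-binding protein described as induced by abscisic acid, at 2205 and 1948, held 39.5% of the RNA-binding class.

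Among transporters the first was GRMZM2G070605, a triose phosphate/phosphate translocator, the carrier that exports fixed carbon from the chloroplast, at 1288 and 1060.4 FPKM. The antioxidant class was led by catalase isozyme 3, GRMZM2G079348, at 865 and 798, with the chloroplast thioredoxins GRMZM2G181258 (M type) at 629 and 341 and GRMZM2G017419 (F type) at 624 and 415. The proteases were led by cysteine proteinase 1, GRMZM2G098298, at 1281 and 1051. Lipoxygenase GRMZM2G015419, lox10 in RefSeq, led lipid metabolism at 1036 and 769 FPKM, and cytosolic glyceraldehyde-3-phosphate dehydrogenase GRMZM2G046804 led glycolysis at 639 and 537.

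A few genes named for stress or water had high levels in the watered leaf. The class of dehydrins, LEA and abscisic acid-induced proteins, which are known from drying tissue, held 0.364% and 0.307% of the pool. Of its 43 genes 17 (39.5%) had a mean of at least 1 FPKM, against 47.0% of all genes, and 3 of them held 77.3% of the class. Its first members were GRMZM2G136910, an abscisic stress protein homolog, at 998 and 689.9 FPKM, dehydrin 13, GRMZM2G169372, at 713 and 482, and the abscisic stress ripening protein 2, GRMZM5G854138, at 201 and 153. The 33 aquaporins, channels that let water cross membranes, held 0.0684% and 0.0729% of the pool, with the tonoplast channel TIP4-1, GRMZM2G103945, first at 146 and 159.8 FPKM and the plasma membrane channel PIP2-1, GRMZM2G014914, at 58.7 and 46.4.

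Transcription factors were many, with levels like those of genes at large. The 460 transcription factor genes held 0.734% and 0.760% of the pool, less than the antenna gene AC207722.2_FG009 alone, and 222 of them (48.3%) had a mean of at least 1 FPKM, against 47.0% of all genes. Their median among genes at that level was 10.6 FPKM, against 9.60 for all genes. The highest were GRMZM2G089812, subunit C-1 of nuclear factor Y, at 643 and 398 FPKM, an R2R3MYB gene, GRMZM2G305856, at 292 and 263, and the CONSTANS-like gene CO6, GRMZM2G038783, at 239 and 165. Clock genes, looked up after values had been seen, were GRMZM2G107101 (Gigantea 1A), an evening gene in plants, at 430.1 and 552 FPKM and the morning gene LHY, GRMZM2G474769 at 28.6 and 30.6 and GRMZM2G014902 at 23.7 and 17.1. The hormone response class held 0.139% and 0.153%, led by an auxin-repressed protein, GRMZM2G005146, at 270.4 and 217.

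Gene by gene the W libraries agreed closely over most of the range. For the 18617 genes with a mean of at least 1 FPKM and a value above 0 in both, the median log2 ratio of replicate 2 to replicate 1 was -0.05, with quartiles of -0.25 and 0.14, and 89.1% of genes were within 1.5-fold. More than 2-fold apart were 517 genes (2.78%), 278 higher in replicate 2 and 239 lower, and 428 of the 517 had a mean below 10 FPKM. Across all 39634 genes, which are not independent replicates, Pearson's r of log2(FPKM + 1) was 0.993 and Spearman's rho 0.979. Both include the 10960 genes at 0 in both libraries. The slope of replicate 2 on replicate 1, fitted to FPKM over the same genes, was 0.709.

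The light reactions had the lowest ratio of replicate 2 to replicate 1 of the classes. Their summed FPKM fell from 82423 in replicate 1 to 51139 in replicate 2, a ratio of 0.620, against 0.877 for all other genes together. The median log2 ratio of the 57 genes compared was -0.63, or 0.646-fold, with quartiles of -0.78 and -0.54, and 56 of the 57 were lower in replicate 2 where 57.6% of all genes were. The exception was GRMZM2G125072, placed in the class by its description as a 3Fe-4S ferredoxin, at 231 and 253 FPKM. These 79 genes made up 30.2% of the difference between the sums of the libraries, and the 13649 uncharacterized or hypothetical genes made up 38.98%. Summed FPKM was lower in replicate 2 in all 38 classes, but the share of the pool was lower in 13 of them. In a bulk leaf sample, fewer cells of a type and less RNA per cell cannot be told apart. The study's methods give replicates 1 and 2 different read lengths, so replicate and read length cannot be told apart either.

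The difference ran through the nuclear subunits of the class. The median log2 ratio was -0.76 for the chlorophyll a-b binding genes (14 of 14 compared genes lower in replicate 2), -0.68 for photosystem I (10 of 10), -0.57 for photosystem II and oxygen evolution (12 of 12) and -0.58 for ferredoxins and their reductases (10 of 11). Other light reaction proteins had the lowest median, -0.83 (5 of 5), and the single plastocyanin gene had -0.61. The models of plastid-encoded subunits had a median of -0.29 (4 of 4) and a ratio of sums of 0.896, but varied from gene to gene. Most of the sum was GRMZM5G815553, at 90.5 and 87.8 FPKM, a log2 ratio of -0.04. GRMZM5G856777 had -0.69, within the range of the nuclear subunits. GRMZM2G448174 and GRMZM2G537039 had -0.39 and -0.19, at means of only 1.17 and 1.01 FPKM. The largest gaps were in GRMZM2G012397 (photosystem I reaction center6) at 3228 and 1397 FPKM and GRMZM2G155216, which RefSeq calls lhcb3, at 4060.5 and 1814. GRMZM2G072280, a chlorophyll a-b binding protein at 1927 and 1324, had the smallest gap of the antenna genes compared, a log2 ratio of -0.54.

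**Figure D4:**
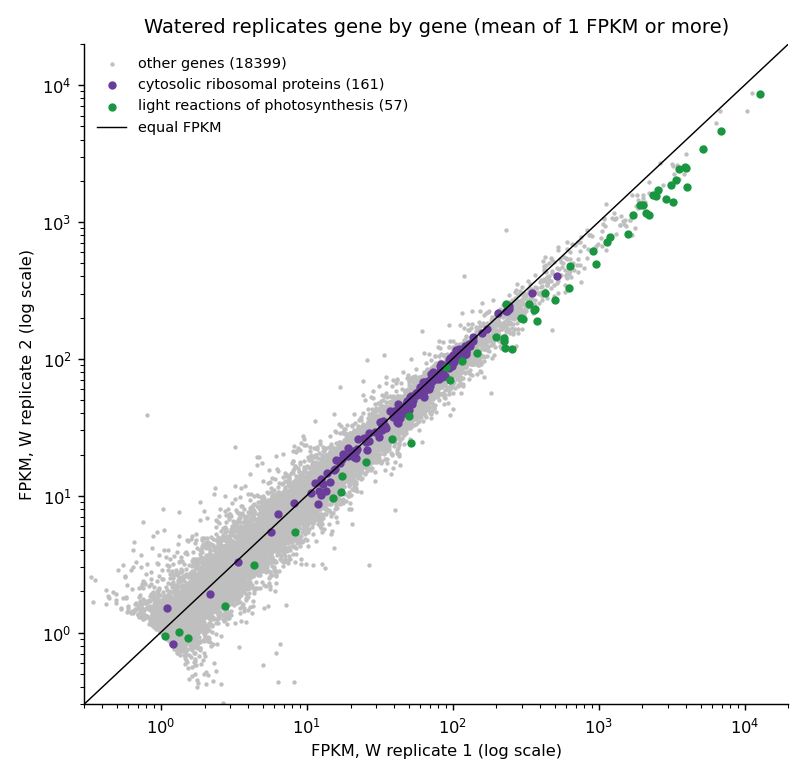
FPKM in W replicate 2 (y axis, log scale) against W replicate 1 (x axis, log scale) for 18617 genes with a mean of at least 1 FPKM, 1 point a gene, with a line at equal values. The 57 light reaction genes (green) lie below the line except 1, while the 161 cytosolic ribosomal protein genes (purple) follow it.

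Level moved with the ratio as well, so genes of like level were set side by side. For all genes but the light reactions the median log2 ratio was -0.03 at a mean of 1 to 10 FPKM (9540 genes), -0.06 at 10 to 100 (8220 genes), -0.19 at 100 to 1000 (751 genes) and -0.43 at 1000 and above (49 genes). For the light reactions it was -0.56 (6 genes), -0.54 (9 genes), -0.65 (22 genes) and -0.66 (20 genes) in the same ranges. The class was thus lower than other genes of its level in each range, and most in the lower 3. Of the 49 other genes at 1000 FPKM and above, 31 had no functional description.

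Most other classes that hold chloroplast proteins were lower in replicate 2 too, by less. The median log2 ratio was -0.41 in the Rubisco and Calvin cycle class (16 of 17 genes lower), -0.38 in plastid and mitochondrial ribosomal proteins (32 of 34) and -0.35 in the C4 shuttle (9 of 13). By level, the C4 medians were 0.04 at 1 to 10 FPKM, -0.14 at 10 to 100, -0.44 at 100 to 1000 and -0.43 above. These rest on 3, 4, 3 and 3 genes. All genes but the light reactions had -0.03, -0.06, -0.19 and -0.43 there. Plastid and mitochondrial ribosomal proteins had -0.18, -0.34 and -0.47 in the lower 3 ranges. Tetrapyrrole and carotenoid synthesis was mixed, with a median of -0.17, quartiles of -0.44 and 0.13, and 16 of 25 genes lower. Rubisco small subunit GRMZM2G098520 had the largest gap of the Calvin cycle class, a log2 ratio of -1.05. Outside the chloroplast, metallothioneins had a median of -0.49 (7 of 7) and histones, the proteins that package DNA, -0.31 (34 of 35). Glutathione transferases and cytochromes P450 had -0.26 (30 of 34) and antioxidant enzymes, some of them in the chloroplast, -0.22 (54 of 64). Cytosolic ribosomal proteins agreed best: their median was -0.03, their quartiles were -0.11 and 0.03, and all 161 were within 1.5-fold, as were all 55 translation factors and tRNA synthetases, with a median of 0.0048. Protein kinases and phosphatases had a median of 0.0042 with 110 genes lower and 111 higher. The spread was widest in defence genes, with quartiles of -0.39 and 0.36 and 58.8% of 34 genes within 1.5-fold.

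**Figure D5:**
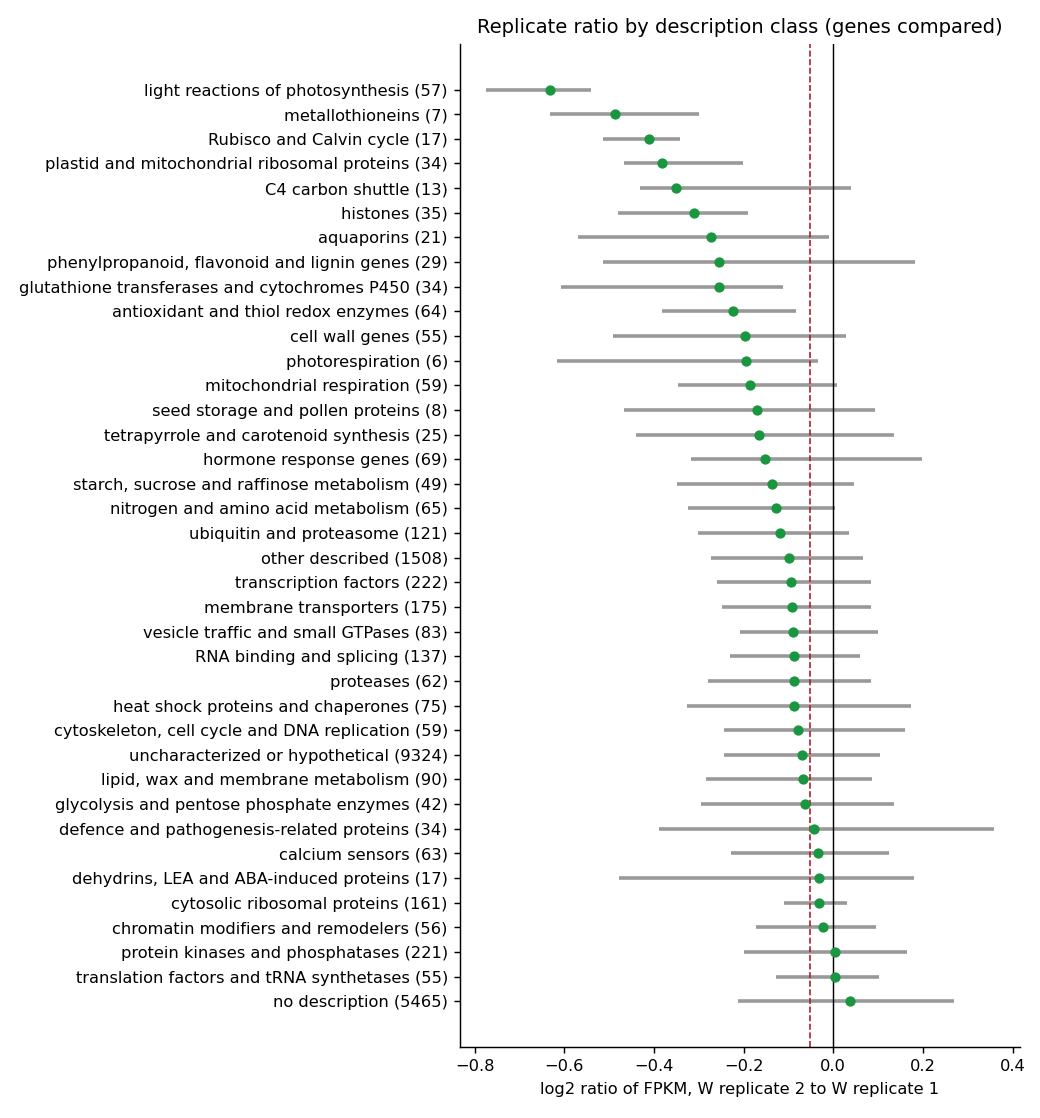
Log2 ratio of FPKM in W replicate 2 to W replicate 1 (x axis) by class, with points at the median, bars from the lower to the upper quartile and the number of genes compared in parentheses. The solid line marks equal values and the dashed line the median of all genes (-0.05), and the light reactions lie lowest at -0.63.

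The same replicate ratio was taken within the other groups. For the light reactions the median log2 ratio of replicate 2 to replicate 1 was -0.0041 in S1 and 0.44 in S3, against 0.08 and 0.09 for all genes of those groups. The share held by the class was 8.89% and 8.51% in the S1 replicates and 2.94% and 3.95% in the S3 replicates. For cytosolic ribosomal proteins the medians were 0.08 in S1 and 0.35 in S3. Replicate 2 was therefore not lower for the light reactions in each group, and the W pair had the widest gap of the 3.

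Single genes differed more than any class. Among the 842 genes with a mean of at least 100 FPKM the 5 highest ratios were those of GRMZM2G341405, without a description, at 232 and 871 FPKM (a log2 ratio of 1.91), GRMZM2G052908, a hypothetical protein, at 120.5 and 405, GRMZM2G109830, without a description, at 62.0 and 160.2, the pathogenesis related protein-5, GRMZM2G402631, at 117 and 218, and GRMZM2G130640, without a description, at 95.3 and 177. The 5 lowest were those of GRMZM2G057075, a hypothetical protein, at 183 and 55.9 FPKM (a log2 ratio of -1.71), GRMZM2G429955, without a description, at 478 and 162, both light reaction genes named above for the largest gaps, and GRMZM2G151510, without a description, at 165 and 73.9. Of the 842 genes 683 were lower in replicate 2 and 159 higher. Some of these genes also differed between the replicates of another group, as GRMZM2G052908 did, at 87.9 and 2.79 FPKM in the S1 libraries and 349.6 and 149 in those of S3. GRMZM2G341405 lay at 286 and 457 in the S1 libraries and at 638 and 653 in those of S3.

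A value of 0 was also given for an abundant gene and may be a failed estimate. Pyruvate orthophosphate dikinase GRMZM2G306345, second by mean over the W libraries, was listed at 0 in both S1 libraries and at 5672 and 6740 FPKM in those of S3. Between the W libraries, 21 genes were listed at 0 in 1 and at 1 FPKM or more in the other, 19 of them at 0 in replicate 1. The highest was GRMZM2G329952, without a description, at 0 and 21.5 FPKM. All 21 lacked a functional description.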

How the data were processed

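The study's methods name bowtie, tophat and cuffdiff for mapping reads to B73 RefGen_v2 and for expression. The processing notes in the labels list CASAVA 1.8.2, TopHat with the version 0.12.8, and Cuffdiff. The authors deposited 1 FPKM value per gene and library and a series table with an FPKM value per condition, log2 fold changes and q-values. The fold changes and q-values were not used. 0 columns of samples outside the series were found. Whether counting used strand is not given in the sources used here.

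The deposited files hold no read counts, so no depth per value was computed, and the read totals that the study gives were not used here. Low values fell on steps: of 3411 genes with a mean below 0.2 FPKM and above 0 in both W libraries, 738 had a ratio of replicate 1 to 2 of 1.14 (to 2 decimals) and 304 and 293 had 0.57 and 2.28, so 1 read was worth 1.14 times as much FPKM in replicate 1.

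Classes came from words in the descriptions, each gene going to the first class matched. The members, classes and lists were chosen with earlier results of these data known, and after the first matches had been seen the words were corrected, which moved 25 genes. RefSeq's table for another assembly, Zm-B73-REFERENCE-NAM-5.0, gave names only, for 18773 genes. Named genes were the 20 of highest mean FPKM, the 3 highest of each class, and, at a mean of 100 FPKM or more, the 5 highest and 5 lowest replicate ratios. Others were chosen after values had been seen, among them further photosynthesis genes, unnamed genes and clock genes. Ratios used genes with a mean of at least 1 FPKM and no pseudocount. The code was tested on simulated data. Tables were read with pandas 2.3.3 and numpy 2.4.6 under Python 3.11.15, correlations came from scipy 1.17.1, and matplotlib 3.10.9 drew the plots. Alternatives were either library alone, the authors' W value, other filters on low or high values, other sources of function, a pseudocount of 1 and other scalings.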

Additional observations from a re-analysis of the deposited data

How the results depend on the processing

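Shares moved most with the genes that were summed. Over each library alone the light reactions ranged from 8.99% to 12.3%, the C4 shuttle from 2.15% to 2.39%, cytosolic ribosomal proteins from 1.66% to 1.88%, the Rubisco and Calvin cycle class from 0.847% to 1.02%, unnamed genes from 59.0% to 61.5%, and the number of genes that reach 50% from 451 to 692. The authors' W value over both replicates gave 10.8% for the light reactions. Without the 20 most abundant genes these shares became 5.79%, 0.769%, 2.08%, 1.10% and 65.6%, in the same order. Among described genes alone they became 26.6%, 5.70%, 4.47% and 2.34%. Adding 4 genes to the light reactions by RefSeq symbol, an alternative chosen after seeing the data, gave 12.5% for that class and 58.4% for unnamed genes. RefSeq names put through the same words moved 220 genes. The words as first written left the 4 functions above as they were but moved 13 of 34 shares, of which the dehydrin, LEA and abscisic acid class became 0.670%, RNA binding 0.513%, chromatin 0.208%, transcription factors 0.939% and photorespiration 0.145%.

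The median log2 ratio of the light reactions stayed between -0.54 and -0.66 under every filter, pseudocount, scaling and level range run. The median of all genes became 0.01 when the libraries were scaled by the median of gene ratios and 0.0018 when scaled by the upper quartile, and by level, chosen after seeing the data, it was -0.19 at 100 to 1000 FPKM and -0.56 at 1000 and above. The cytosolic ribosomal median turned from -0.03 to 0.03 and 0.02 under the scalings. No paired analysis was possible because 1 group was described and no test was run. With 2 libraries each SD rests on 2 values, and a value listed at 0 may be a level too low to detect or a failed estimate, which was not tested.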

Other observations

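Unnamed genes were not only rare transcripts. Of all 39634 genes, 13649 were called only uncharacterized or hypothetical and 19801 had no description, together 84.4%. Of the 1000 genes of highest mean FPKM, 470 were of the first kind, a larger part, and 139 of the second, a smaller part. They carried 37.5% and 10.8% of the FPKM of the 1000. Among those with no functional description and no RefSeq photosynthesis name, GRMZM2G175562 had 5284 and 3523 FPKM in W replicates 1 and 2, AC190623.3_FG001 had 3854 and 2244, AC216353.2_FG005 had 3165 and 2645, GRMZM5G892124 had 2618 and 2687, and GRMZM5G878205 had 2786 and 1852. GRMZM5G892124 was higher in replicate 2, unlike the 20 genes above it.

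Some described genes outside the classes were also abundant. Both thiazole biosynthetic enzymes, which make a precursor of thiamine, were high, with GRMZM2G018375 at 2013 and 1568 FPKM and GRMZM2G074097 at 1228 and 1072. Remorin, a plasma membrane protein, GRMZM2G122937, had 1686 and 1571 FPKM. GRMZM2G472852 and GRMZM2G380414, both described as ultraviolet-B-repressible, had 1394 and 948 and 1118 and 619.8. GRMZM2G062788, bundle sheath defective2, known in maize for its part in making Rubisco, had 284 and 213.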
